A study of Mus musculus with 4 samples.

Results

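The genes described here are named genes, outside the cytokine, chemokine and interferon name families, whose probes passed a detection mark under AEPS and not without it. AEPS is a polysaccharide prepared from the roots of Actinidia eriantha. The genes were chosen by their detection in these data: a gene was taken when a probe was marked well above background on both AEPS arrays and on neither DMEM array, with no other probe of the gene detected in DMEM. Names that begin with lincRNA, chr, ENSMUST, A_5, TC, Il, Ccl, Cxcl, Csf, Tnf, Ifn, Ifi, Oas, Gbp or Slfn were left out, as were Col5a3 and Hdc. The rule took 162 of the 36163 gene names on the arrays, or of 24838 names outside those prefixes, through 171 of 55681 probes. Another 14 genes with a cytokine or interferon prefix and 65 unnamed transcripts shared the pattern, and 106 named genes had its mirror image, being well above background in DMEM only.

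The cells were RAW264.7, an established macrophage-like line from mouse, and their total RNA was labelled with Cy3 and read on 4 Agilent arrays of 1 colour, 1 for each of 4 groups. Cells carried a stably integrated EmGFP-miR vector, a carrier of artificial microRNAs, with a Scramble insert in the control line and a Linc-AAM knockdown insert in the other, and each line was a bulk culture selected with blasticidin and not a clone. Each line was kept for 4 h in DMEM alone or in DMEM with 50 µg/mL AEPS, so all cells shared the parental line, the vector backbone and the selection. With 1 array a group, no value below has a replicate error, and differences are described by size. The level of Linc-AAM itself was not analysed here, so the names of the lines were not checked against their target.

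A macrophage carries receptors for microbial polysaccharides and lipids. Their signal passes through kinases to NF-kB and AP-1 factors, and within hours it raises cytokine and chemokine genes. The same signal reaches many genes outside those families. Among them are genes of feedback inhibitors, which limit the signal, of peptide hormones and growth factors, of chemoattractant receptors, of clotting and fibrinolysis proteins, of matrix proteins and of lipid enzymes. A promoter with a TATA box and few GC boxes is a common form for genes that are silent at rest and rise sharply.

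Values are given as scaled intensity, in which the 75th percentile of each array's spots is set to 500. The detection limit of an array is the lowest value of a probe with most of its spots marked well above background. It was 12.1 in DMEM and 15.2 under AEPS on the arrays labelled scramble, and 19.1 and 17.98 on those labelled knockdown. Spots well above background made up 53.4% to 58.0% of the 59305 non-control spots per array, none was saturated, and all 4 arrays had 1 scan time. For probes printed 8 or more times, repeat spots of an array had a median SD of 0.037 to 0.046 log2 units, an error that covers the array but not the culture. Of 12 macrophage markers 11 were well above background on every array, Mertk being the exception. Of 6 epithelial markers 0 or 1 was, of 6 fibroblast markers 1 to 3, of 6 T cell markers 3 or 4, of 6 dendritic cell markers 3 or 4, and of 6 endothelial markers 3. Of 6 B cell markers 1 was, of 6 NK cell markers 1 or 2, of 6 mast cell markers 1 or 2 and of 5 neutrophil markers on the arrays 2. No member is on a marker list, and the part of such cells in the members' values was not tested. In bulk RNA, a change in the number of cells that express a gene and a change in RNA per cell cannot be told apart.

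The names of the lines differed between the deposited sources. Each column of the deposited value table matched the scanner file of the other line in the same medium, with a Spearman correlation over all probes that rounded to 1, against 0.96876 in DMEM and 0.96888 under AEPS for the file of its own label. The names of the scanner files are used below, as "labelled scramble" and "labelled knockdown". Every difference between the lines would turn its sign under the names of the value table, whereas the direction of the AEPS rise does not depend on them.

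Promoter sequences of members with the strongest rise follow, and no link between them and the detection pattern was tested. The 250 bases before the RefSeq start are given for the first 4 genes by the mean AEPS rise, on GRCm38.p6 and 5' to 3' on the gene's strand. Capitals mark matches to the motifs listed further down, other than the GC box and the YY1 element.

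Cish, chr9:107296409-107296658, plus strand: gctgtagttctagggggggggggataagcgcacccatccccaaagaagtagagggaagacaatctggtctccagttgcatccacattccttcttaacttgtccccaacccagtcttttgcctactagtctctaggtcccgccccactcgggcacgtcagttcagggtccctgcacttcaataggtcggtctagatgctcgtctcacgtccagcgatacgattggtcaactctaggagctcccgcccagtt
Edn1, chr13:42301226-42301475, plus strand: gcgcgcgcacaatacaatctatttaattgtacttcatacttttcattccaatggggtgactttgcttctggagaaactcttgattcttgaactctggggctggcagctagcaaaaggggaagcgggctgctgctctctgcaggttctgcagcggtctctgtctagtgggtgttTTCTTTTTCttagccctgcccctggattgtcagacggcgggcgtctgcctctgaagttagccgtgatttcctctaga
Pdzk1ip1, chr4:115088458-115088707, plus strand: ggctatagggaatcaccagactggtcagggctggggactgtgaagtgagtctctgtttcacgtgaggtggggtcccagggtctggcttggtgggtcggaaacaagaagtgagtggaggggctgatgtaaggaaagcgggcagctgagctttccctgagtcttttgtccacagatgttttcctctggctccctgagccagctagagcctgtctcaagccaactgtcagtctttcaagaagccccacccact
5730559C18Rik (Inava), chr1:136234281-136234530, minus strand: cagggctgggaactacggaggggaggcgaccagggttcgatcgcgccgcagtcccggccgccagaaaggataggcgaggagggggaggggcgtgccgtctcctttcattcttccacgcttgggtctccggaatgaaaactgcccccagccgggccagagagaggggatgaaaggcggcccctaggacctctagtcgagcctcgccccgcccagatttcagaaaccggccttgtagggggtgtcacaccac

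Among these printed stretches only that of Edn1 held a match, to the interferon-stimulated response element form on the minus strand, 77 to 69 bases before the start. The full search window also took in 50 bases after the start. There Cish held 2 matches to the STAT element and 1 to a kappa B form, none of them wholly within the printed bases. A further 4 of the 20 strongest members are shown, from those with 1 window that held TATAAA or GGNNTTTCC, a kappa B form, before the start. Fpr1 and Shbg also met this, with TATAAA as their only match, and are not shown. The 4 were chosen after the matches were seen, for a kappa B form or a CRE.

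Retn, chr8:3655520-3655769, plus strand: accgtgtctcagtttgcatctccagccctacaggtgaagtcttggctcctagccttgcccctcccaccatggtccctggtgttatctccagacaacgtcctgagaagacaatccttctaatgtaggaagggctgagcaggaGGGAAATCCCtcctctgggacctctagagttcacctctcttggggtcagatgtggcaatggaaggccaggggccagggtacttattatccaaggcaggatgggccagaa
Ch25h, chr19:34475149-34475398, minus strand: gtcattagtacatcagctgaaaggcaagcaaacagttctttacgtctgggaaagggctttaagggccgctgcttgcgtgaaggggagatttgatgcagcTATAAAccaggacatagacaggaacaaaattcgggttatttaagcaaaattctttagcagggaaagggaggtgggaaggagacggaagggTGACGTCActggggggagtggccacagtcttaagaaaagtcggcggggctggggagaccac
Dusp5, chr19:53528895-53529144, plus strand: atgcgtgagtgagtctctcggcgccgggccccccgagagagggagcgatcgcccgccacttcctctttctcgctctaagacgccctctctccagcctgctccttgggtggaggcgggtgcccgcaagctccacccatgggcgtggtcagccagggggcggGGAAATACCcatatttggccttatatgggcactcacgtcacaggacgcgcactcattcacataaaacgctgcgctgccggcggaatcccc
F3, chr3:121723287-121723536, plus strand: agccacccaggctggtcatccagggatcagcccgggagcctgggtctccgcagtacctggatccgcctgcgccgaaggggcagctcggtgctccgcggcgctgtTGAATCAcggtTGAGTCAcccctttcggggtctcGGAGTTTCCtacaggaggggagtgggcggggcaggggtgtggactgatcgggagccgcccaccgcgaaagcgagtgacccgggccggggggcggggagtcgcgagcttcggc

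In Retn the capitals are a kappa B match, found on both strands, 109 to 100 bases before the start. Ch25h held TATAAA 151 to 146 bases and a full CRE, TGACGTCA, 61 to 54 bases before it. Dusp5 held a kappa B form 90 to 82 bases before the start. F3 held a pair of AP-1 matches, 146 to 140 and 135 to 129 bases before the start, and a kappa B match 112 to 104 bases before it. These are matches of letters, not measured binding.

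The pattern itself chose the genes, so the AEPS rise is described and not tested. Over the 162 members, scaled intensity on the DMEM arrays ran from 2.44 to 14.3 with a median of 7.47 on the array labelled scramble, and from 3.79 to 22.1 with a median of 8.17 on the array labelled knockdown. Under AEPS it ran from 15.96 to 3236 with a median of 40.2 for scramble, and from 18.7 to 1523 with a median of 37.3 for knockdown. The typical member was thus dim even under AEPS. Because the DMEM value lies below the detection mark, the rise is given as a bound, the AEPS value over the DMEM value or, where that was lower, over the detection limit of that DMEM array, and is written "at least".

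The bound reached 2-fold on both lines for 72 of 162 members (44.4%), against 4.14% of the 21208 genes well above background on both AEPS arrays. It reached 2-fold on the scramble line for 117 members, against 6.71% of the genes measured there, and on the knockdown line for 77, against 4.65%. The rule fixed these shares in part, and nothing is read from the gap. The bound reached 4-fold on both lines for 40 members, 8-fold for 23, 16-fold for 7 and 32-fold for 1. It stayed under 2-fold on both lines for 40 and fell below 0 on the log2 scale on a line for 4. Among these 4, Ndufa4l2 itself read lower under AEPS on the knockdown line, at 21.5 against 22.1 in DMEM. Vmn1r168, LOC640382 and NAP012247-001 read higher under AEPS and fell below 0 only against the limit. The median bound was 3.33-fold on the scramble line and 1.96-fold on the knockdown line.

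The words "switched on" fit some of these genes more closely than others. On both AEPS arrays, 73 members were 2-fold or more above the detection limit, and 89 lay within 2-fold of it on an AEPS array. By the scanner's looser mark, positive and significant, 105 members had a signal on both DMEM arrays, 29 on 1 and 28 on none. Closest inside the limit were Vmn1r168, at 7.60 and 8.79 in DMEM and 67.0 and 18.7 under AEPS (scramble before knockdown), NAP012247-001 at 9.95, 11.4, 21.9 and 18.8, LOC640382 at 10.6, 11.96, 27.4 and 18.8, Bcam at 8.42, 16.2, 15.96 and 20.6, and Olfr1380 at 11.6, 17.4, 16.3 and 21.7, in the same order. A further 322 named genes failed only because 1 DMEM array was above the mark. The brightest of those was Flrt3, at 9.74 and 38.6 in DMEM and 4460 and 5752 under AEPS, brighter than any member. Ptger2, the prostaglandin E receptor EP2, stood at 13.7 and 10.4 in DMEM and 2060 and 863 under AEPS. I830012O16Rik (Ifit3b) stood at 30.5 and 6.80 in DMEM and 2160 and 227 under AEPS. LOC380994 (Gm20736), at 2080, 19.3, 2581 and 38.1, and Btg3, at 799.8, 8.25, 2373 and 21.0, were bright in DMEM on the scramble line alone, in the order scramble and knockdown in DMEM, then scramble and knockdown under AEPS.

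**Figure D1:**
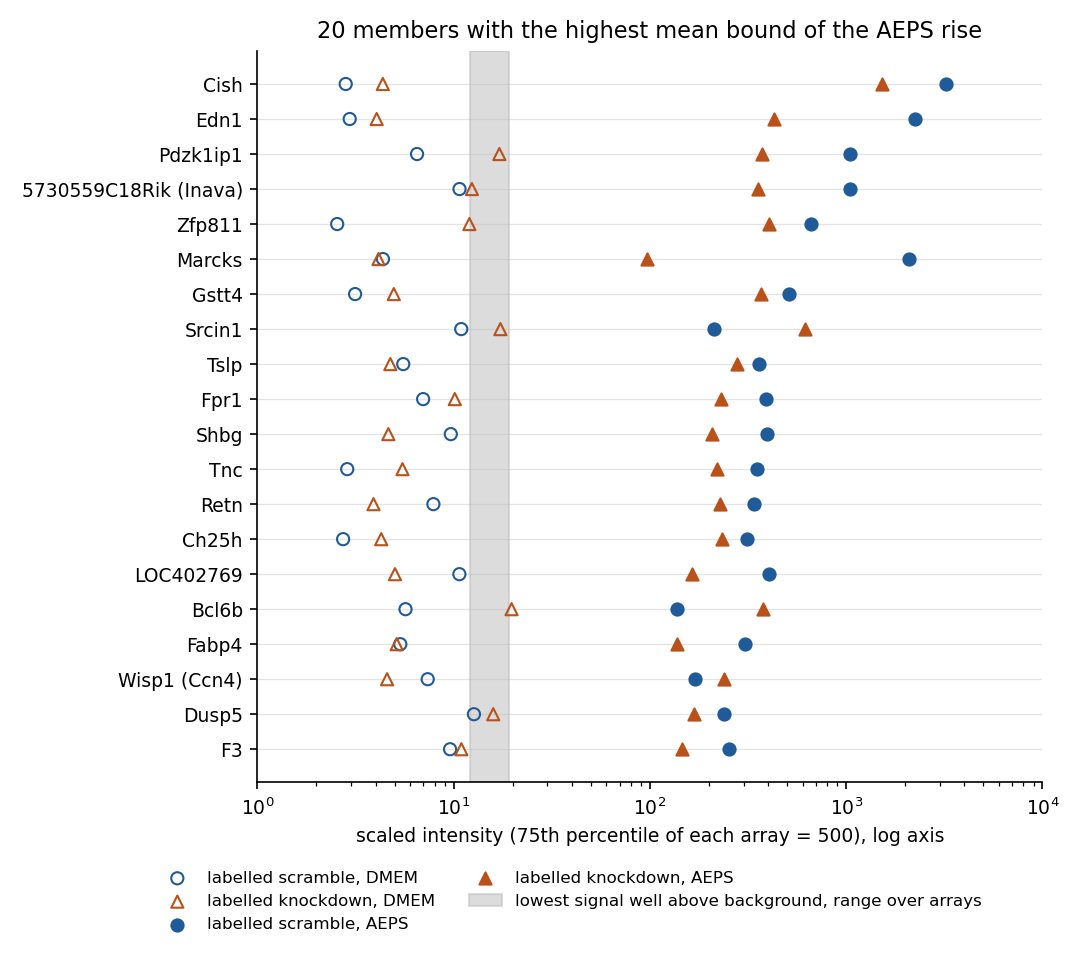
Scaled intensity on a log axis for the 20 members with the highest mean bound, on each of the 4 arrays (circles labelled scramble, triangles labelled knockdown, open DMEM, filled AEPS). The grey band spans the lowest signals well above background, 12.1 to 19.1, and all filled points lie above 90 while no open point exceeds 20.

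Cish led the list. It encodes a feedback inhibitor of cytokine receptor signalling through STAT factors. Its probe, at chr9:107204196-107204255 on mm9, read 2.82 and 4.35 on the DMEM arrays labelled scramble and knockdown and 3236 and 1523 on the AEPS arrays in the same order. Both AEPS arrays lay far from both DMEM arrays, a rise of at least 268-fold on the scramble line and at least 79.9-fold on the knockdown line. Cish was the member above 32-fold on both lines.

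Roles were assigned to 91 members after their names and values were seen. The 10 functional lists were drawn up apart from the roles, but with earlier results of these data known. The rule took 162 of the 24838 names outside the excluded prefixes, and nothing is read from the list counts. Secreted factors held 7 members among 60 genes, matrix and junction genes 4 of 50, and proteases and coagulation genes 4 of 51. Interferon-stimulated genes and signal transduction genes held 3 of 62 each. Channels and transporters held 2 of 48, signalling receptors 2 of 51, lipid and amine enzymes 1 of 48, immune surface receptors 1 of 57 and transcription factors 1 of 60.

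Among 12 members that encode secreted signalling proteins, 8 had a bound of 2-fold or more on both lines. Edn1 encodes endothelin-1, a peptide that constricts vessels. Its probe (chr13:42403101-42403160, mm9) read 2.95 and 4.05 in DMEM, and 2253 and 430.01 under AEPS, so the AEPS arrays stood apart from DMEM and also from each other. The probe was printed 10 times, and the spots used on an AEPS array ran from 2055 to 2320 for scramble and from 418 to 446 for knockdown, a spread of printing within the array only. Tslp, a lymphopoietin that acts on dendritic cells, read 5.53 and 4.76 in DMEM and 361 and 277 under AEPS. Shbg, the carrier of sex steroids in blood, read 9.67 and 4.65, then 394 and 208.

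Retn, which encodes resistin, read 7.88 and 3.90 in DMEM and 340 and 227 under AEPS, and a second Retn probe gave 205 and 153 under AEPS. Wisp1 (Ccn4), a matricellular growth regulator, read 7.37 and 4.58, then 169 and 237, and was the brighter on the knockdown line. Cx3cl1, the membrane-bound chemokine fractalkine, whose name falls outside the excluded prefixes, read 4.26 and 4.85 and then 157 and 73.8. Inhba, which encodes the activin A subunit, read 2.46 and 3.88 and then 102 and 81.4. Penk, the precursor of enkephalins, read 3.56 and 4.53 in DMEM, 199 for scramble under AEPS and 33.2 for knockdown, so that its bound missed 2-fold on the knockdown line. Wnt10a, Epgn, Clcf1 and Artn were all between 24.4 and 52.3 under AEPS.

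Of 11 cell surface receptors, 7 had a bound of 2-fold or more on both lines. Fpr1 and Fpr2 encode formyl peptide receptors, which guide phagocytes towards bacterial peptides. Fpr1 read 6.99 and 10.1 in DMEM and 392 and 231 under AEPS. Fpr2 read 5.37 and 4.26 in DMEM and 313 and 62.0 under AEPS, so both rose on both lines but the AEPS arrays of Fpr2 lay further apart. The probes of this pair share 20 of 60 bases in their best ungapped alignment. Pdpn, podoplanin, read 2.49 and 3.89, then 175 and 155, nearly level between the lines. Cd69, an early activation antigen of leukocytes, read 2.66 and 4.13, then 310.1 and 54.9.

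Slamf8, a receptor of the SLAM family on macrophages, read 11.9 and 11.1 in DMEM and 106 and 43.3 under AEPS. Gpr4, a proton-sensing receptor, read 5.57 and 8.16, then 32.7 and 40.6, and Mrc1, the mannose receptor, 2.87 and 9.37, then 29.0 and 44.3. Both were dim under AEPS. Alk, a receptor tyrosine kinase, was at 55.6 and 37.9 under AEPS, with a bound of 1.99-fold on the knockdown line. H2-Eb1, Cd248 and Bcam stayed between 15.96 and 31.04 under AEPS.

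Of 14 signal transduction genes, Cish included, 9 had a bound of 2-fold or more on both lines. Marcks, a membrane substrate of protein kinase C, read 4.36 and 4.14 in DMEM and 2088 and 97.0 under AEPS, the widest gap between the AEPS arrays in this group. Srcin1, an inhibitor of Src kinase, went the other way, with 10.9 and 17.3 in DMEM and 212 and 613 under AEPS. Src, the kinase itself, read 6.24 and 12.4 in DMEM and 150 and 186 under AEPS, so inhibitor and kinase both crossed the mark. Dusp5, a nuclear phosphatase of ERK kinases, read 12.7 and 15.9, then 238 and 167. Dusp8, a phosphatase of JNK and p38 kinases, was at 45.3 and 31.4 under AEPS, and a probe listed under its older name 5530400B01Rik was detected in DMEM.

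Plek2, a pleckstrin of the actin cytoskeleton, read 8.03 and 4.05 in DMEM, then 214 and 47.7. Ngef read 2.97 and 4.04, then 73.8 and 134. Akap12, a scaffold of protein kinase A, was at 47.7 and 37.2, just under 2-fold on the knockdown line.

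All 3 haemostasis genes had bounds above 4-fold on both lines. F3 encodes tissue factor, the starter of blood clotting, and its probe (chr3:121437717-121437776, mm9) read 9.59 and 10.9 in DMEM and 253 and 146 under AEPS. Serpinb2 encodes an inhibitor of plasminogen activators and read 7.66 and 7.57, then 202 and 101. Plat, which encodes tissue plasminogen activator, read 2.59 and 9.93, then 166 and 121. A clotting initiator, a fibrinolysis enzyme and an inhibitor of such enzymes thus crossed the mark in the same cultures, each brighter on the scramble line and none by 2-fold.

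Of 9 matrix genes, 4 had a bound of 2-fold or more on both lines. Tnc, the matrix glycoprotein tenascin C, read 2.87 and 5.49 in DMEM and 352 and 219 under AEPS, and a second probe read 294 and 138. Has1, a hyaluronan synthase, read 5.86 and 4.03, then 130.2 and 93.4. Fap, a surface protease best known in activated fibroblasts, read 4.08 and 3.91, then 78.7 and 60.8. Mmp13, a collagenase, read 2.53 and 3.92, then 56.3 and 170.2, and was the brighter on the knockdown line.

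Ltbp1, which binds latent TGF-beta, read 2.79 and 4.24 in DMEM and 19.7 and 65.9 under AEPS. Tnn, tenascin N, read 2.95 and 11.6, then 21.5 and 47.4. With Mmp13 these were the 3 matrix genes brighter by 2-fold or more on the knockdown line, and Ltbp1 and Tnn lay close to the limit on the scramble line. Htra1, Thbs4 and Eln stayed under 33 on every array. Of 6 fibroblast markers, Col1a1, Col1a2 and Dcn were well above background on an array and Lum, Pdgfra and Thy1 on none. The summed scaled intensity of those above background was 73.3 and 37.4 in DMEM and 154 and 98.5 under AEPS, and its part in the matrix genes was not tested.

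Among 14 genes of metabolic enzymes, lipid carriers and transporters, 7 had a bound of 2-fold or more on both lines. Ch25h encodes cholesterol hydroxylase, which makes an oxysterol with antiviral and chemoattractant roles, and read 2.73 and 4.27 in DMEM and 313 and 232 under AEPS. Gstt4, a glutathione transferase, read 3.15 and 4.95, then 511 and 368. Fabp4, a fatty acid carrier of macrophages and adipocytes, read 5.35 and 5.13, then 305 and 138. Tmem27 (Cltrn), a partner of amino acid transporters, read 2.90 and 4.53, then 126 and 184. Aqp3, a channel for water and glycerol, was level between the lines, with 12.3 and 7.87 in DMEM and 99.3 and 98.4 under AEPS. Uox, urate oxidase, read 2.50 and 5.13, then 66.5 and 112.

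Galntl2 (Galnt15), a glycosyltransferase, was at 33.0 and 65.0 under AEPS. Slc16a9, a carrier of the monocarboxylate transporter family, was at 20.5 and 41.0. Dpys, dihydropyrimidinase, was the member whose probes disagreed. Its brighter probe read 21.1 on the scramble and 53.7 on the knockdown array under AEPS, and a second read 48.6 and 19.9, so the mean of its probes differed by 0.03 on the log2 scale between the lines. The other 8 members with several probes meeting the rule had the same sign in each probe.

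Of 3 members given an interferon-stimulated role after their values were seen, 0 had a bound of 2-fold on both lines. Cd69, described among the receptors, is also on the interferon-stimulated list and had bounds of 25.7-fold and 2.88-fold. Mx1, an antiviral GTPase, read 11.3 and 3.92 in DMEM and 800.4 and 26.5 under AEPS. Pyhin1 (now Ifi209, a name the prefixes would have left out), a member of a family of nucleic acid sensors, read 11.99 and 3.79, then 651 and 31.9. Their bounds were 66.3-fold and 53.9-fold on the scramble line but 1.39-fold and 1.67-fold on the knockdown line. Trim30c was at 49.0 and 26.9 under AEPS.

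The 5 genes of small inhibitor families, 3 of them with a bound of 2-fold or more on both lines, lay near relatives. Expi (Wfdc18), with a whey acidic protein domain, read 9.08 and 3.95 in DMEM and 185 and 73.8 under AEPS. 1100001G20Rik (Wfdc21), of the same family, read 2.64 and 4.14, then 101 and 39.3, and its probe was printed 10 times, with spots from 93.5 to 107 on the scramble and 27.4 to 47.5 on the knockdown array under AEPS. The stefin genes Gm5483 (Cstdc4), BC100530 (Cstdc5) and Gm5416 (Csta3), relatives of cysteine protease inhibitors, read 44.7, 23.4 and 19.2 on the scramble and 68.2, 38.8 and 37.7 on the knockdown array under AEPS. The whey acidic protein genes were thus brighter on the scramble line, and the stefin genes brighter on the knockdown line by less than 2-fold. Probes of these families shared 19 to 24 of 60 bases pairwise.

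The contractile and junction genes are named for other tissues. Tnnt2 and Tnni1 encode troponin subunits of cardiac and slow skeletal muscle, and Lad1 (ladinin) and Pkp1 (plakophilin) encode proteins of epithelial junctions. Tnnt2 read 2.69 and 7.23 in DMEM and 144 and 196 under AEPS. Lad1 read 2.51 and 3.91, then 103 and 178. Tnni1 read 7.95 and 4.46, then 46.1 and 60.4, and Pkp1 read 3.11 and 8.01, then 29.9 and 24.8. Myom3, a protein of the sarcomere's M band, read 4.61 and 3.96, then 97.2 and 68.5.

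Of 6 epithelial markers, Epcam, Cdh1, Krt8 and Krt19 were not well above background on any array, and those above it summed to 19.03 and 0 in DMEM and 21.6 and 0 under AEPS.

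Tnni1, Lad1, Tnnt2 and Pkp1 lie in a row on chromosome 1. From the Lad1 probe (chr1:137728110-137728169, mm9), Tnni1 lay 22.4 kb, Tnnt2 19.99 kb and Pkp1 39.9 kb away. The other named genes probed within 100 kb did not share the rise. Csrp1, 79.4 kb off, read 20075 and 18151 in DMEM and 16038 and 15722 under AEPS. Phlda3, 62.5 kb off, read 487 and 1131, then 119 and 411.0, lower under AEPS on both lines.

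Over the genome, 17 pairs of members lay within 100 kb of each other, and 23 members (14.2%) took part in a pair. Of 24511 other named genes with a position, 2.501% had a member within 100 kb. On chromosome 17, Has1 lay 33.2 kb and Fpr2 16.9 kb from Fpr1. Spaca6 (listed as Ncrna00085) in that window was measured in DMEM and rose as well, from 41.2 and 96.9 to 183 and 248, while Fpr3 read 15.9 and 14.7, then 24.9 and 21.6. On chromosome 11 the Wfdc18 and Wfdc21 probes were 41.3 kb apart, with Wfdc17 (Gm11428) 5.75 kb from Wfdc18 at 452 and 240 in DMEM and 3896 and 1482 under AEPS. Ccl4, a chemokine gene, lay 46.7 kb from Wfdc18 and rose from 3551 and 5279 to 293470 and 181380. In the stefin cluster on chromosome 16, the 3 members stood among relatives such as Stfa1 and Stfa2l1 that were not well above background on any array. Another relative, 2010005H15Rik (Csta2), passed the mark on the AEPS array labelled scramble alone, at 15.2.

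A set of 63 genes with a cytokine or interferon name prefix was higher under AEPS on both lines. In all, 6 members (3.70%) lay within 100 kb of 1 of these, against 0.685% of the other named genes, with no test. Gm14047 (Il1bos), a non-coding transcript 10.9 kb from Il1b, read 2.57 and 4.02 in DMEM and 93.1 and 123 under AEPS. Cx3cl1 lay 29.6 kb from Ccl17 and 31.5 kb from Ccl22. The other 4 were Wfdc18, Wfdc21, Fap and Olfr433. Fap counted through Ifih1, 96.5 kb off, and Olfr433 through Ifi202b, 79.5 kb off, which share the Ifi prefix but encode neither a cytokine nor an interferon. Whether neighbours share control was not tested.

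**Figure D2:**
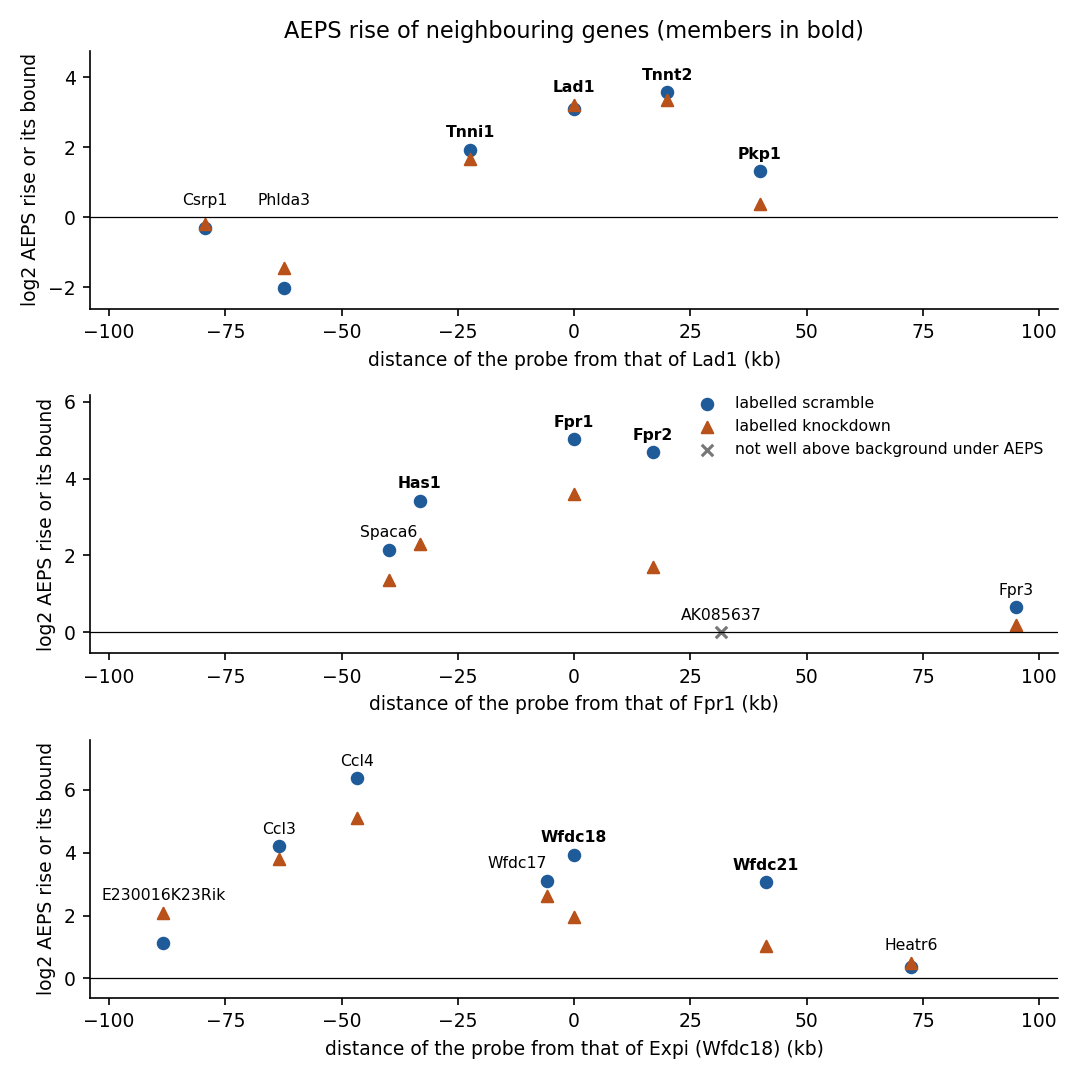
Log2 AEPS rise, or its bound where a DMEM value lay below the mark, against the distance in kb of each named probe from that of Lad1, Fpr1 or Expi (Wfdc18), for arrays labelled scramble (circles) and knockdown (triangles). Members are in bold, crosses at 0 are genes not well above background under AEPS, and the 4 genes Tnni1, Lad1, Tnnt2 and Pkp1 stand above 0 beside Csrp1 and Phlda3 below it.

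Of 6 transcription factor genes, 2 had a bound of 2-fold or more on both lines. Zfp811, a zinc finger protein, read 2.55 and 12.02 in DMEM and 663 and 403 under AEPS. Bcl6b, a repressor related to Bcl6, read 5.68 and 19.7, then 138 and 377.5, and was the brighter on the knockdown line. Gfi1, Sox30, Rhox9 and Gm8008 (Zfp660) stayed between 19.6 and 27.7 under AEPS.

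The 9 odorant and vomeronasal receptor genes stood at the dim end. Under AEPS they ran from 16.3 to 67.0, and Olfr156 alone had a bound of 2-fold on both lines, with 8.23 and 9.09 in DMEM and 27.8 and 39.3 under AEPS. No role was given to the other 71 members, of which several were bright. Pdzk1ip1, a small membrane protein that binds PDZ domains, read 6.51 and 17.1 in DMEM, then 1048 and 371. 5730559C18Rik (Inava), an adaptor of innate immune signalling, read 10.71 and 12.4, then 1048 and 357. AA467197, a small mitochondrial protein gene, read 2.75 and 4.29, then 439 and 42.3. LOC402769, 15.1 kb from Tnc, read 10.69 and 5.02, then 405 and 163, and Shisa3 read 2.83 and 7.06, then 363 and 95.1.

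The difference between the lines under AEPS was not used by the rule. A gene was called when the AEPS arrays, both well above background, differed 2-fold or more, with no test. Of the 162 members, 26 (16.05%) were lower and 7 (4.32%) higher on the array labelled knockdown, against 2.14% lower and 1.47% higher among the 21208 genes so measured. The members' median difference was -0.04 on the log2 scale, against 0.01 for all genes, so the typical member was level and the lower calls formed a tail. Lower in sign were 83 of 162.

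The members were also split by how far the dimmer of their 2 AEPS arrays lay above its limit. A gene low on 1 array could thus join the lower set through the difference itself. Mx1, at 800.4 on the scramble and 26.5 on the knockdown array, and Pyhin1, at 651 and 31.9, were so placed. The split therefore cannot say whether the tail goes with brightness. Of the 73 members 2-fold or more above the limit, 18 were lower and 4 higher, with a median log2 difference of -0.39. Of the other 89 members 8 were lower and 3 higher, with a median of 0.08. Among genes of all kinds no brighter on either AEPS array than the median member on its brighter one, 4 of 2596 were lower and 16 higher. This set caps the brighter array and so the size of a difference. It is thus unlike the 89 members, which may be bright on 1 array. Genes that rose from a measured level leaned lower, as the 73 members did. Of 526 named genes that were measured on all 4 arrays and were 2-fold or more higher under AEPS on both lines, 93 (17.7%) were lower and 15 (2.85%) higher, with a median of -0.29. The cytokine and interferon names with the same detection pattern had 4 lower and 3 higher of 14, and the unnamed transcripts 10 lower and 1 higher of 65. These sets are given side by side, and nothing here is particular to the members.

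The widest gaps under AEPS were in Mx1, 30.2-fold lower on the knockdown array, Marcks, 21.5-fold, Pyhin1 (Ifi209), 20.4-fold, and AA467197, 10.4-fold. Penk was 5.98-fold, Cd69 5.65-fold, Edn1 5.24-fold, Fpr2 5.04-fold and Plek2 4.49-fold lower. In the other direction, Ltbp1 was 3.35-fold, Mmp13 3.02-fold, Srcin1 2.89-fold, Bcl6b 2.74-fold, 1700012B09Rik 2.71-fold, Dpys 2.54-fold and Tnn 2.202-fold higher on the knockdown array. With normexp background, which adds an offset, the log2 differences of Ltbp1, Dpys and Tnn were 0.73, 0.54 and 0.50, under 2-fold, and 3 of the 7 higher calls were left. With the mean of its probes Dpys was not called either. Among roles, the lower calls were 3 of 12 secreted proteins, 3 of 11 receptors, 3 of 14 signal transduction genes, 2 of 5 small inhibitor genes, 2 of 3 interferon-stimulated genes, 1 of 14 metabolic genes and 1 of 9 odorant and vomeronasal receptors. The higher calls included 3 of 9 matrix genes and 0 of 12 secreted proteins.

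**Figure D3:**
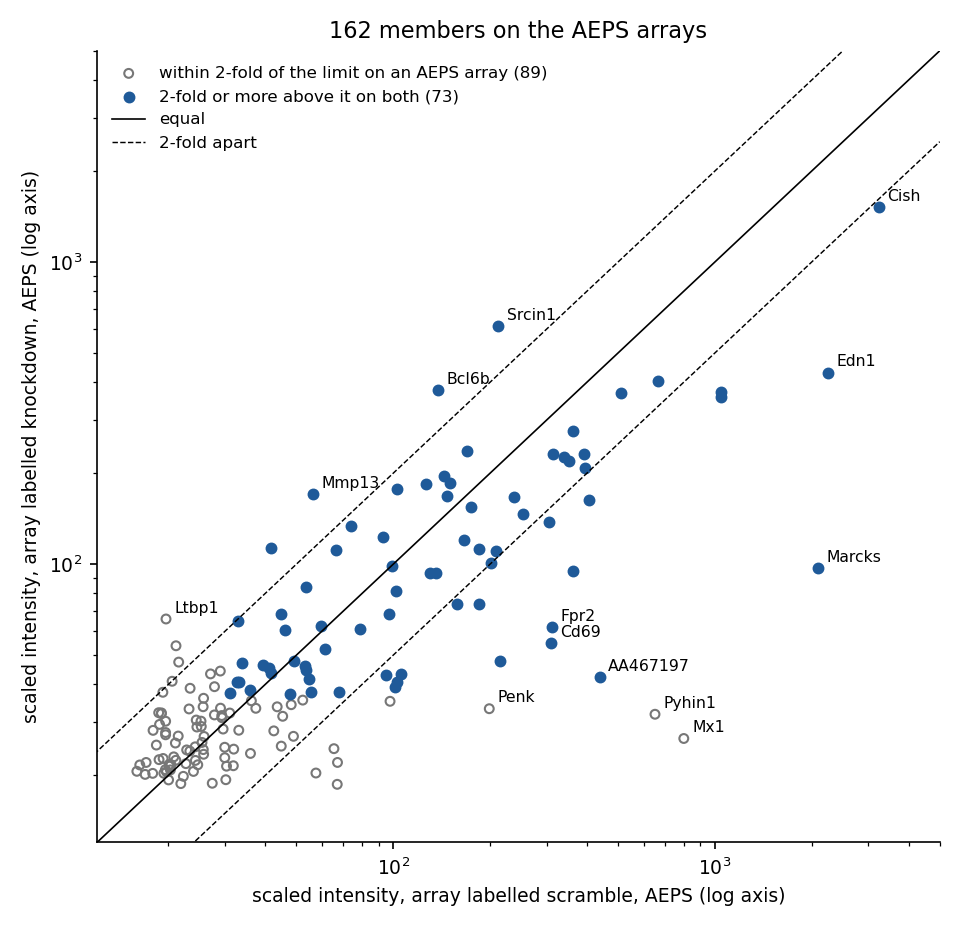
Scaled intensity of the 162 members on the AEPS array labelled knockdown against that labelled scramble, both on log axes, with filled points for the 73 members 2-fold or more above the limit and open points for the other 89. Dashed lines mark a 2-fold difference, and 26 points lie below the lower line and 7 above the upper.

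**Figure D4:**
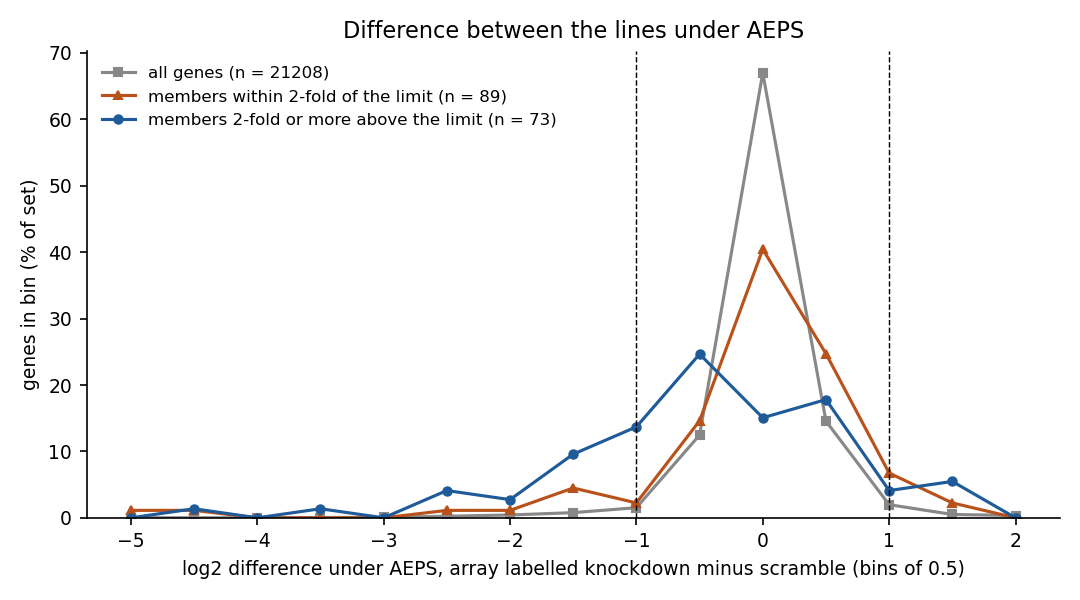
Share of genes (%) in bins of 0.5 of the log2 difference under AEPS, array labelled knockdown minus array labelled scramble. The sets are 73 members 2-fold or more above the limit on both AEPS arrays, the other 89 members and 21208 genes. At -1 or below lie 18 of the 73 and 8 of the other 89 members, against 2.14% of all genes.

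A limma fit with additive terms for line and medium was the test that 4 arrays allowed, with 1 residual degree of freedom plus a prior of 2.80. The residual of a gene is its line-by-medium difference. The SE and p-values of the fit rest on that difference and the prior, and do not measure a spread between repeat cultures. For the line effect over both media it called 0 of 162 members higher and 0 lower after Benjamini-Hochberg adjustment, against 0.389% higher and 0.335% lower of 22369 genes. The smallest limma adjusted p of a member was 0.0563, and 51 members (31.5%) had an unadjusted p under 0.05, against 3248 (14.5%) of all genes. The rule held both DMEM values of a member below the mark, and the fit used them without a floor, such as 2.55 and 12.02 for Zfp811. The share of 31.5% thus rests in part on values near background that the rule had chosen. A difference under AEPS alone goes in part into the residual, so the counts of 0 say nothing about it. With an intensity trend in the prior the fit called 3 members higher and 6 lower, against 580 higher and 700 lower of all genes, and 28 members (17.3%) had an unadjusted p under 0.05, against 17.95%.

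The pathway around these genes was described through a list of 43 NF-kB and Toll-like receptor genes, none of which is a member. Of 42 tested by limma for the AEPS effect over both lines, 19 were higher and 3 lower after adjustment, against 7.39% higher and 7.2% lower of all genes, and the median effect was 0.61 on the log2 scale against 0.07 over all genes. With no filter on dim probes 4 of 43 were higher and 0 lower, so all 3 falls given below ended there. A kinase and IkB family proteins stood at the top. Ikbke, an IkB kinase relative, read 52.6 and 71.2 in DMEM and 934 and 847 under AEPS, a limma log2 effect of 3.86 ± 0.19 (SE, adjusted p = 0.00761). Nfkbiz, a nuclear IkB protein, rose by 3.21 ± 0.24 (limma adjusted p = 0.0115). Nfkbie, a cytoplasmic IkB protein, rose by 2.98 ± 0.16 (limma adjusted p = 0.00795).

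The falls were in receptors and a kinase. Tlr13, an endosomal receptor of bacterial RNA, read 6300 and 3001 in DMEM and 1375 and 1252 under AEPS, with a limma log2 effect of -1.73 (adjusted p = 0.0339). Tlr4, the receptor of lipopolysaccharide, read 2281 and 1841, then 489 and 831, an effect of -1.68 (limma adjusted p = 0.044). Irak4, a kinase below these receptors, had an effect of -0.74 (limma adjusted p = 0.0463).

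Promoter windows of 300 bases, from 250 before to 50 after the start, were found in RefSeq (GRCm38.p6) for 112 members, 126 windows in all, and 50 members had none. Motifs were searched on both strands, and shares are set beside those of all 32851 windows, with no test. TATAAA occurred in 20.6% of member windows and 13.6% of all windows, and in 27.0% of the 63 windows of members with a bound of 2-fold or more on both lines. GGNNTTTCC, a short kappa B form, occurred in 14.3%, 5.82% and 20.6% in the same order. On the gene's own strand and 20 to 40 bases before the start, TATAAA stood in 5 of 126 member windows (3.97%) and 1.99% of all.

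The shares of the other motifs follow. GGAANTTCC, another short kappa B form, occurred in 2.38% of member windows and 0.928% of all, but the longer kappa B consensus, which overlaps with both short forms, in 3.97% and 4.51%. TGANTCA, the AP-1 element, occurred in 11.1% and 7.81%, TGACGTCA, the CRE, in 3.17% and 1.79%, TTCNNNGAA, the STAT element, in 9.52% and 8.30%, and GAAANNGAA, the interferon-stimulated response element form, in 9.52% and 8.56%. TTGCGCAA, the C/EBP element, occurred in 0 of 126 windows and 0.183% of all, GCCATNTTG, the YY1 element, in 0.794% and 2.51%, and CCGCCC, the GC box, in 31.7% and 35.7%. In the 63 windows of members with a bound of 2-fold or more on both lines, the AP-1 element occurred in 14.3%. The STAT and interferon-stimulated forms occurred there in 11.1% each, the longer kappa B consensus in 4.76% and GGAANTTCC in 1.59%. The CRE occurred there in 3.17%, the GC box in 31.75%, and the C/EBP and YY1 elements in 0. The member windows with TATAAA included those of Aqp3, Cx3cl1, Fpr1, Fpr2, Inhba, Mmp13, Serpinb2, Tnc and Wfdc18, and those with GGNNTTTCC included Cish (after the start), Dusp5, F3, Mrc1, Myom3, Ngef, Retn and Slamf8.

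**Figure D5:**
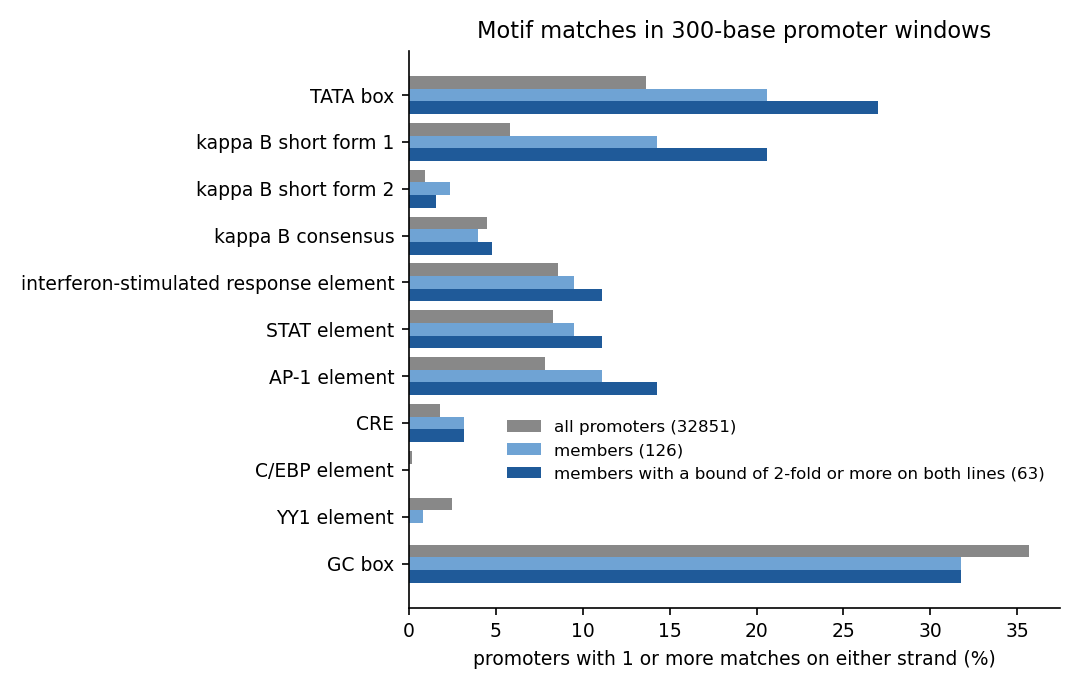
Share of 300-base promoter windows (%) with 1 or more matches to each motif on either strand, for all 32851 windows, 126 windows of members and 63 windows of members with a bound of 2-fold or more on both lines. The bars for the TATA box (13.6%, 20.6% and 27.0%) and the first kappa B short form (5.82%, 14.3% and 20.6%) lengthen in that order. Those for the AP-1 element (7.81%, 11.1% and 14.3%) and the STAT element (8.30%, 9.52% and 11.1%) do so too. The same holds for the interferon-stimulated response element (8.56%, 9.52% and 11.1%).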

How the data were processed

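Total RNA of 4 RAW264.7 cultures, 1 per group, was hybridised to 1 array each. The deposited scanner files give a linear intensity for each spot, with background subtracted and nothing scaled between arrays. Agilent Feature Extraction 10.7.1.1 made them, with probes placed on mm9, per the file headers. The authors also deposited a table of log2 values. How it was normalized is not given in the sources used.

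Control spots were left out. Outlier spots were left out of the values but not of the rule's detection marks. The 75th percentile of the non-control spots of an array was subtracted from its log2 intensities, and repeat spots were averaged. Printed scaled intensities set that percentile to 500. A member is shown by its brightest probe that met the rule, other genes by their brightest probe. Names follow the scanner files. Current symbols came from a RefSeq table, by accession for 135, symbol for 16 and synonym for 3 member probes, with 17 unmatched.

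The AEPS rise is a bound against the DMEM value or, where higher, the detection limit of the DMEM array. Differences between arrays were called at 2-fold, without a test. limma 3.58.1 in R 4.3.3 fitted line and medium to 22369 genes that passed the detection mark on at least 2 arrays, and was tested on simulated data. Pandas 2.3.3 on Python 3.11.15 did the rest.

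The members, lists and motifs were chosen with earlier results of these data known, and the roles after names and values had been seen. Members named in the text are the 20 with the highest mean bound, the 8 largest and 8 smallest differences between the lines among official-style symbols, up to 4 per functional list, the 5 nearest the limit, family members, and others chosen after their values were seen. Alternatives were the looser detection mark, normexp background with an offset of 50, quantile normalization, array medians, the value table, the mean of a gene's probes, no filter and an intensity trend. Exon and UTR positions of probes were not analysed here.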

Additional observations from a re-analysis of the deposited data

How the results depend on the processing

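No paired analysis was possible because the groups share only 1 replicate number, each holding 1 array. The limma terms compare the media within a line and the lines within a medium. No array could be left out in turn. Requiring 2-fold above the limit on both AEPS arrays left 73 of 162 members, and a bound of 2-fold on both lines 72. The looser detection mark took 201 genes, of which 25 were among the 162. Leaving out outlier spots from the detection marks took 163 genes, all 162 among them.

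With normexp background, which adds an offset of 50, 36 members in place of 72 had a bound of 2-fold on both lines, 14 in place of 26 were lower on the knockdown array under AEPS and 3 in place of 7 higher. Under the line names that the deposited value table carries, 7 members were lower and 27 higher, and all 32 differences recomputed turned their sign. The 19 of 2-fold or more became 1.04 for Cish, 2.36 for Edn1, 1.499 for Pdzk1ip1, 1.55 for 5730559C18Rik, 4.42 for Marcks, -1.53 for Srcin1, 1.35 for LOC402769, -1.45 for Bcl6b, 1.18 for Fabp4, 4.96 for Mx1, 4.39 for Pyhin1, 2.37 for Fpr2, 2.54 for Cd69, 2.196 for Plek2, -1.58 for Mmp13, 2.63 for Penk, -1.77 for Ltbp1, -1.15 for Tnn and -1.36 for Dpys on the log2 scale. With quantile normalization or array medians, all 32 genes recomputed kept their direction and side of 2-fold. With the mean of a gene's probes 6 members were higher, without Dpys.

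For the limma line effect, normexp called 2 members higher, and an intensity trend 3 higher and 6 lower. Over all genes, 87 higher and 75 lower became 417 and 313 with normexp, 580 and 700 with the trend, and 0 and 0 with no filter, where 3039 genes had an unadjusted p under 0.05. Of the pathway list, 4 were higher and 0 lower with no filter, where 24 had an unadjusted p under 0.05. The cause of these shifts was not tested.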
